A study of Mus musculus with 42 samples.

Results

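Open chromatin in hippocampal neurons of Ts65Dn;Brwd1+/- mice was compared with that of euploid mice, using the 1 list of ATAC-seq peaks deposited for each genotype. ATAC-seq (assay for transposase-accessible chromatin with sequencing) marks DNA that a transposase can reach, and a peak is an interval where such reads pile up over the local background. The Ts65Dn;Brwd1+/- list held 30244 peaks and the euploid list 15521. Together these were 45765 of the 100790 peaks in the 6 lists of the series, and they came from 6 of its 42 libraries, 3 per genotype. A peak was called shared when it overlapped a peak of the other list by 1 base or more, and private to its list otherwise.

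The study asked whether a normal Brwd1 copy number in trisomic mice brings neuronal chromatin back towards the euploid state. Ts65Dn mice carry a freely segregating extra chromosome that holds the distal end of chromosome 16, with Brwd1, and the proximal end of chromosome 17. Ts65Dn;Brwd1+/- mice came from Ts65Dn females crossed with males heterozygous for the Brwd1 repro5 mutation, so that 1 of their Brwd1 copies was mutated while the rest of the extra segment stayed triplicated. Euploid mice had neither the extra chromosome nor the mutation, and both groups were adult males aged 6 weeks on the same mixed DBA/2J x B6EiC3Sn/J background. Nuclei of frozen whole hippocampus were sorted for NeuN, a neuronal nuclear protein, so neurons of all types in the region could enter the libraries. No list of euploid mice with the mutation was used here, so the mutation and the trisomy cannot be told apart in this comparison. Libraries had been combined into 1 list per genotype in a way that is not given in the sources used here, so no value below has a replicate error and no test between genotypes was possible. Intervals are 95% Wilson intervals and cover counting error only.

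In neurons, accessible chromatin marks promoters of active genes and the distal elements, many of them inside introns, that carry cell type and activity-dependent regulation. The BAF (SWI/SNF) complex is an ATP-dependent remodeller that moves or removes nucleosomes at such sites, and its ATPase is either SMARCA2 or SMARCA4. BRWD1 is a protein with bromodomains and WD repeats, modules that contact chromatin, and its gene is triplicated in Ts65Dn mice.

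Most of what was open in the euploid list was also in the Ts65Dn;Brwd1+/- list, which then added about as many peaks again. Of the 15521 euploid peaks, 14925 were shared (96.2%, interval 95.8 to 96.5%) and 596 were private. Of the 30244 Ts65Dn;Brwd1+/- peaks, 14499 were shared (47.9%, interval 47.4 to 48.5%) and 15745 were private. By bases, 94.4% of the 6195477 bases of euploid peaks lay inside Ts65Dn;Brwd1+/- peaks, and 45.7% of the 12799674 bases of the latter lay inside euploid peaks. The difference between the lists was thus almost all in 1 direction, a longer Ts65Dn;Brwd1+/- list with 1.95 times as many peaks and 2.07 times the bases.

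The sites below are single examples from these classes, chosen after their values were seen, and are not typical of them. They are given as reference sequence of mm10 (GRCm38) on the plus strand, up to 300 bases around the peak centre. Capitals mark CAGATG, an E-box of the kind bound by NEUROD proteins, CAGCTG, another E-box, or TGANTCA, the AP-1 motif bound by FOS and JUN. No exon or untranslated region of the annotation (GENCODE, GRCm38) overlapped any of them.
The first was a shared intronic peak of Gria1, which encodes an AMPA receptor subunit, with a fold enrichment of 4.58 in the euploid and 4.49 in the Ts65Dn;Brwd1+/- list. It is shown as an element listed at nearly the same height in both, with both E-boxes.
Gria1, chr11:57271757-57272056: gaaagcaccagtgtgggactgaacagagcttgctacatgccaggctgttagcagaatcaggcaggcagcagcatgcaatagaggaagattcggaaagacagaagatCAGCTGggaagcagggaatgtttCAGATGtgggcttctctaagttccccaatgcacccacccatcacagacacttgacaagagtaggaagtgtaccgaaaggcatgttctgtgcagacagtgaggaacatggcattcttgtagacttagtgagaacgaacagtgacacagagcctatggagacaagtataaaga
An intronic peak of Park2, the parkin ubiquitin ligase gene, had the largest ratio of fold enrichment, Ts65Dn;Brwd1+/- over euploid, among shared regions outside chromosome X once overlapping peaks were joined, a step chosen after seeing the data.
Park2, chr17:11108025-11108324: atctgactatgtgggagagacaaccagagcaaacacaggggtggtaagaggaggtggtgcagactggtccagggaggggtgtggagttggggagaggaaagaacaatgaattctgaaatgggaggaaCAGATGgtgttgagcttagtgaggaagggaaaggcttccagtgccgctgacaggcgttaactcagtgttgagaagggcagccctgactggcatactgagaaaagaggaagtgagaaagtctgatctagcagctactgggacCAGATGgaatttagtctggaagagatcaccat
Intronic peaks of Lnx2, a ubiquitin ligase gene, and of Dab1, which encodes the adaptor of reelin signalling, were private to the Ts65Dn;Brwd1+/- list. They come from its largest private class, gene bodies. Their fold enrichments of 5.98 and 4.36 were above the median of 3.23 of private peaks in gene bodies.
Lnx2, chr5:147068887-147069186: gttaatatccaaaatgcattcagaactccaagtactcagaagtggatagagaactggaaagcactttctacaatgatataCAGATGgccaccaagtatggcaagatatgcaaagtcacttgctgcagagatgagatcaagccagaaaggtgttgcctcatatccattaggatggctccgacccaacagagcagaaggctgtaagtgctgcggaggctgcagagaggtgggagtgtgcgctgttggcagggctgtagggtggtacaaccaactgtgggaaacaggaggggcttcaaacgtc
Dab1, chr4:104275344-104275573: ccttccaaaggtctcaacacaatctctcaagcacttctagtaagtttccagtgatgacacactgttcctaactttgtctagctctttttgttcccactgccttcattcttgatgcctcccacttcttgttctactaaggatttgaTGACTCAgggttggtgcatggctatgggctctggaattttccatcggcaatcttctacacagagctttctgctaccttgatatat
The private euploid peak of highest fold enrichment lay between genes, and 75.3% of the bases shown are masked as repeats in the reference. It is an extreme of its class, whose median masked share was 1.99%, with 5.68% of peaks mostly masked.
Euploid private, chr7:12010493-12010792: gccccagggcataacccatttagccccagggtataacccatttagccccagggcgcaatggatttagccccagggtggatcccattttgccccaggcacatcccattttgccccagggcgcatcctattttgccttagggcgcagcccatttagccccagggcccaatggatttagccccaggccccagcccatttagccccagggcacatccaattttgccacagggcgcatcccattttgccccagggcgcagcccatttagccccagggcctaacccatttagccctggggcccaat

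The strongest peaks were common to both lists, and the shared share dropped steeply down the Ts65Dn;Brwd1+/- list but little down the euploid list. Peaks were ranked by q-value, the peak caller's p-value adjusted for the number of peaks, and each list was cut into 10 bins of equal size. In the Ts65Dn;Brwd1+/- list the strongest bin was shared at 3024 of 3025 peaks, bin 3 at 86.6%, bin 5 at 45.1% and the weakest bin at 7.14% (6.28 to 8.12%). In the euploid list the share went from 1552 of 1553 peaks in the strongest bin to 87.4% (85.7 to 89.0%) in the weakest. Even the weakest euploid peaks were therefore mostly found again. Proximal promoters, intervals within 250 bases of a transcription start, made up 87.4% of the strongest bin of Ts65Dn;Brwd1+/- peaks and 13.9% of the weakest.

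**Figure D1:**
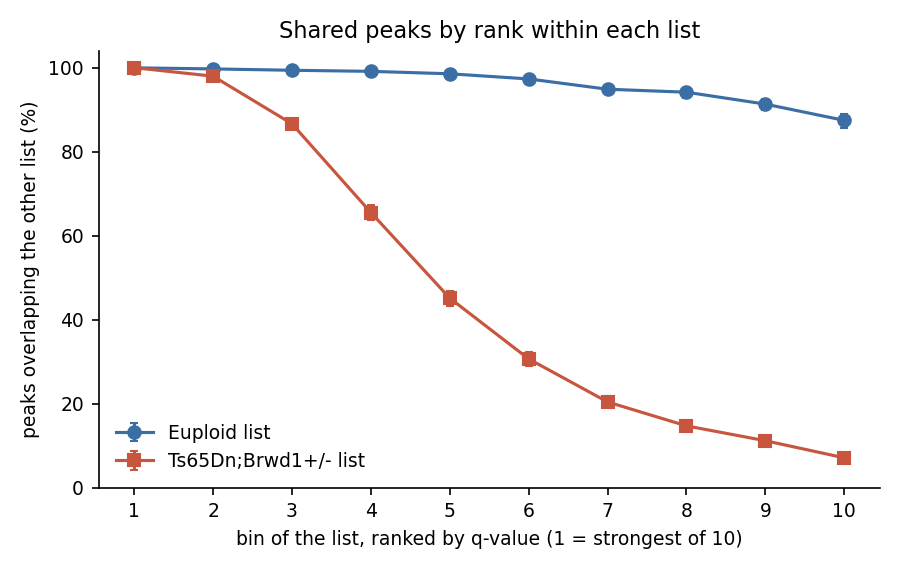
Share of peaks (y axis, %) of each list that overlap the other list, by bin of the list ranked by q-value (x axis, 1 is the strongest of 10), with 95% Wilson intervals. Both lists start near 100%, and the Ts65Dn;Brwd1+/- list ends at 7.14% while the euploid list ends at 87.4%.

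Lists of equal length were compared next, since a longer list reaches further down. Among the 1000 strongest peaks of each list by q-value, 72.5% overlapped (69.7 to 75.2%), and among the 5000 strongest, 82.6% of the euploid and 82.4% of the Ts65Dn;Brwd1+/- peaks. At the overlapping peaks of these short lists the median log2 ratio of fold enrichment, Ts65Dn;Brwd1+/- over euploid, was -0.013 for the 1000 strongest and 0.037 for the 5000 strongest, and when ranked by fold enrichment it was 0.045 and 0.069. With all 15521 euploid peaks set against the 15521 strongest of Ts65Dn;Brwd1+/- mice, 80.8% (80.2 to 81.4%) and 77.8% (77.2 to 78.5%) overlapped. This left 2976 euploid and 3441 Ts65Dn;Brwd1+/- peaks without a partner, numbers that lists of equal length hold close together by construction. Of these 2976 euploid peaks, 2380 (80.0%) did overlap a Ts65Dn;Brwd1+/- peak of lower rank. Proximal promoters made up 55.1% of the euploid and 52.5% of the shortened Ts65Dn;Brwd1+/- list, and gene bodies 16.9 and 20.5%. Gene bodies were still the main place of the 3441 Ts65Dn;Brwd1+/- peaks without a euploid partner (40.7%), ahead of intergenic DNA (26.7%) and proximal promoters (18.9%). Ranked by fold enrichment in place of q-value, 75% of the euploid and 72.1% of the shortened list overlapped.

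Shared peaks were mainly promoters, and gene bodies were the largest class, though not most, of the peaks added in the Ts65Dn;Brwd1+/- list. Of shared Ts65Dn;Brwd1+/- peaks, 56.9% (56.1 to 57.7%) were at proximal promoters, 16.8% in gene bodies and 14.9% intergenic. Of its private peaks, 14.5% (14 to 15.1%) were at proximal promoters, 41.5% in gene bodies and 27.5% intergenic. The 596 private euploid peaks had 16.1% (13.4 to 19.3%) at proximal promoters, 28.7% in gene bodies and 35.1% intergenic. Read the other way, 78.3% of the Ts65Dn;Brwd1+/- peaks at proximal promoters were in the euploid list, against 27.2% of those in gene bodies.

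**Figure D2:**
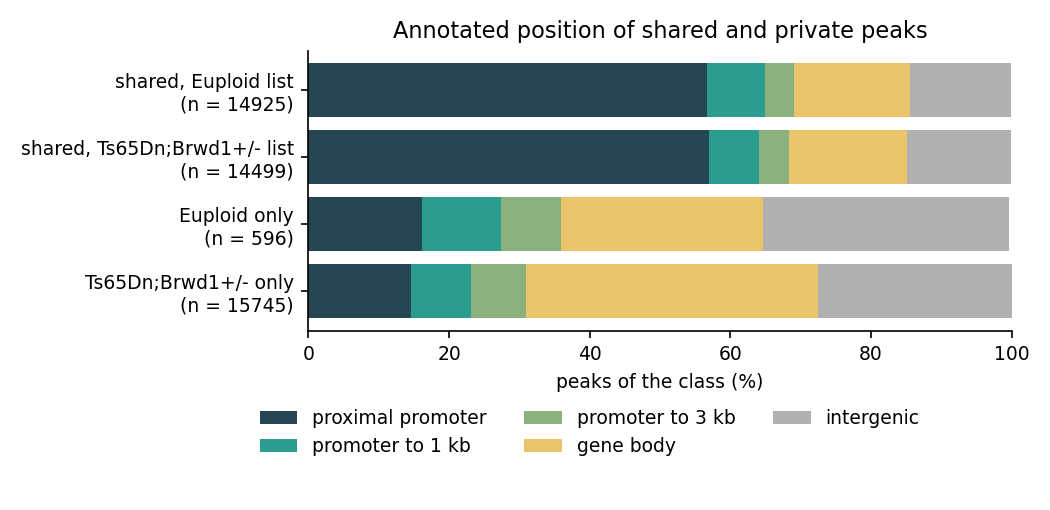
Share of peaks of each class (x axis, %) by annotated position, for shared peaks of each list and private peaks. Proximal promoters made up 56.7 and 56.9% of the shared classes, and gene bodies 41.5% of the peaks only in Ts65Dn;Brwd1+/- mice.

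Private peaks were weaker and narrower than shared ones. Fold enrichment, the height of a peak over its local background as a ratio, had a median of 4.37 for shared and 3.20 for private Ts65Dn;Brwd1+/- peaks. Median widths of the same classes were 505 and 265 bases. In the euploid list the medians were 4.07 and 3.36, with widths of 345 and 224 bases. Only 1738 of the 15745 private Ts65Dn;Brwd1+/- peaks (11%) stood above the euploid median of 4.01. The difference in position was still there among peaks of like height: between 4 and 5, proximal promoters made up 55.2% of 4277 shared and 15.2% of 1609 private peaks. At 5 or higher, where only 165 of 4941 Ts65Dn;Brwd1+/- peaks were private, the shares were 78.9 and 32.7%.

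The Ts65Dn list, which holds the trisomy without the Brwd1 mutation and has 29195 peaks, was set beside these classes. It overlapped 98.3% of the shared Ts65Dn;Brwd1+/- peaks and 59.7% (58.9 to 60.4%) of the private ones. It also overlapped 347 of the 596 private euploid peaks (58.2%, 54.2 to 62.1%). Of the peaks that the Ts65Dn;Brwd1+/- list held beyond the euploid list, 9394 were thus in both trisomic lists.

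At shared peaks the heights were close, with a small excess in Ts65Dn;Brwd1+/- mice. Each of the 14925 shared euploid peaks was paired with the Ts65Dn;Brwd1+/- peak that shared most bases with it. The median fold enrichment of the pairs was 4.07 in the euploid and 4.40 in the Ts65Dn;Brwd1+/- list. The median log2 ratio, Ts65Dn;Brwd1+/- over euploid, was 0.066 (quartiles -0.071 and 0.21), and 62.5% of pairs were higher in Ts65Dn;Brwd1+/- mice. A ratio of 1.5 or more was found in 383 pairs (2.57%) towards Ts65Dn;Brwd1+/- mice and in 18 pairs (0.121%) towards euploid mice. Across the pairs log2 fold enrichments had a Pearson r of 0.81 and a Spearman rho of 0.79, over 14925 peaks that share 2 lists and are not independent. The median log2 ratio was 0.065 at proximal promoters and 0.065 in gene bodies, so the excess was alike in both. Over 4 equal groups by the mean height of a pair it was 0.016, 0.088, 0.10 and 0.058 from the lowest to the highest group.

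Of the 10 shared peaks highest by the lower of their 2 values, 4 were at proximal promoters. The highest was intergenic, at chr12:3109798-3110158, with a fold enrichment of 28.8 in euploid and 20.5 in Ts65Dn;Brwd1+/- mice and 84.8% of its bases masked as repeats. An interval in the gene body of Chl1, a neural cell adhesion gene, had 17.5 and 14.8, and one in Filip1l had 12.3 and 10.3. The promoter of Inpp5f, a phosphoinositide phosphatase gene, had 10.1 and 10.7. Of these 10, 7 were lower in Ts65Dn;Brwd1+/- mice.

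The largest ratios lay where peaks had been split. In all 10 pairs with the largest ratio, from Larp4b (2.60 and 7.93) to Wasl (2.95 and 7.33), 1 wide Ts65Dn;Brwd1+/- peak spanned several euploid peaks and had been paired with a minor one. Against the taller euploid peak under the same interval, their log2 ratios were between -0.030 and 0.13. Peaks of both lists that overlap were therefore joined into 14429 regions, each with the highest fold enrichment of either list, a step chosen after seeing the data. The median log2 ratio was then 0.059, with 167 regions (1.16%) at 1.5 or more towards Ts65Dn;Brwd1+/- mice and the same number as before, 18 (0.125%), towards euploid mice.

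After joining, the region of largest ratio was the promoter of Gm6787 on chromosome X, with a fold enrichment of 3.87 in the euploid and 9.14 in the Ts65Dn;Brwd1+/- list. Next came the Park2 intron shown above, at 3.35 and 7.04. The promoter of Dynlt1b, a dynein light chain gene with near-identical copies beside it on the triplicated part of chromosome 17, had 3.56 and 7.13. Promoters of Sptlc1, a subunit of the enzyme that starts sphingolipid synthesis (3.03 and 5.76), and Acer3, an alkaline ceramidase (3.56 and 6.71), were also among the 10 largest. At the other end, the promoter of Tunar had 4.22 and 2.69, and an interval in the gene body of Lars2, the mitochondrial leucyl-tRNA synthetase, had 8.71 and 5.29. An interval next to Gm10722 on chromosome 9, 98.2% of it masked as repeats, had 8.98 and 5.20. All of these regions were named after joining, and thus after values were seen.

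**Figure D3:**
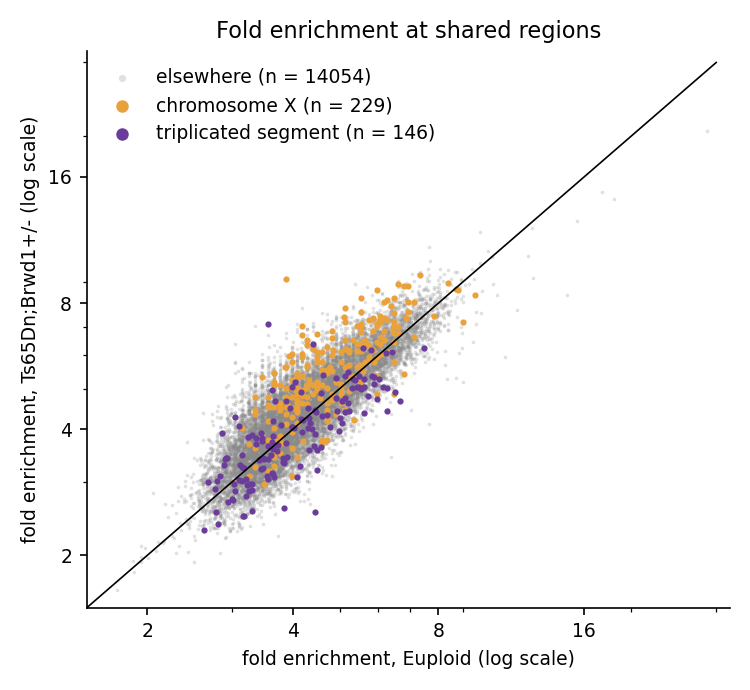
Fold enrichment of each joined shared region in the euploid (x axis) and Ts65Dn;Brwd1+/- list (y axis), both as ratios on log axes, with the line of equality. Regions of chromosome X (n = 229, median log2 ratio 0.20) lie mostly above the line and those of the triplicated segment (n = 146, median -0.072) mostly below it.

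Chromosome X and the triplicated segment stood apart from the rest. Among the autosomes outside the segment, median log2 ratios of joined regions were between 0.035 and 0.088. On chromosome X the median was 0.20, with 179 of 229 regions higher in Ts65Dn;Brwd1+/- mice. At proximal promoters alone it was 0.22 on X and 0.058 on autosomes outside the segment. In the segment it was -0.072, with 48 of 146 regions higher, and at its 60 promoters -0.12, with 12 higher. With single euploid peaks paired in place of joined regions, the medians for Ts65Dn;Brwd1+/- mice were 0.066 over all pairs, 0.21 on X and -0.063 in the segment. In that pairing of Ts65Dn with the same euploid list, the median was 0.30 over all 15012 pairs, 0.39 on X and 0.21 in the segment, so X was high and the segment low relative to the other pairs there too. These comparisons share the euploid list.

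**Figure D4:**
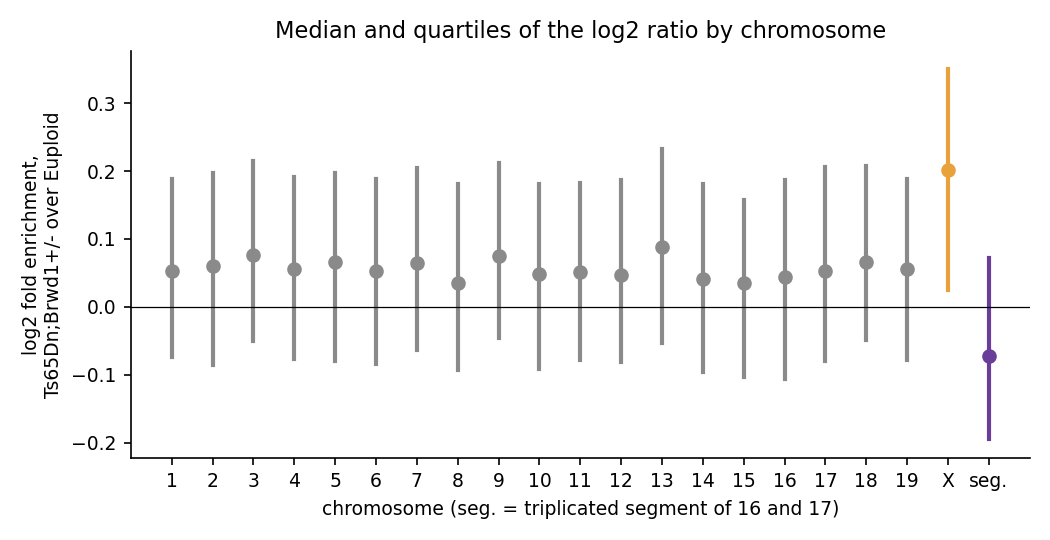
Median (point) and quartiles (bar) of the log2 ratio of fold enrichment, Ts65Dn;Brwd1+/- over euploid (y axis), for joined shared regions by chromosome (x axis). Autosomes lie between 0.035 and 0.088, chromosome X at 0.20 and the triplicated segment at -0.072. The points of chromosomes 16 and 17 include their part of the segment, and outside it their medians were 0.082 and 0.059.

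The segment differed in the opposite way in its number of peaks. Bounded here by the start of Mrpl39 (chr16:84717576) and the end of Pde10a (chr17:8986648, mm10), it held 156 euploid and 473 Ts65Dn;Brwd1+/- peaks, 3.03 times as many against 1.93 times on the other autosomes. Of its Ts65Dn;Brwd1+/- peaks, 69.1% (64.8 to 73.1%) were private, against 51.7% (51.1 to 52.3%) on the other autosomes. The part on chromosome 17 had 76.7% private and the part on chromosome 16 had 64.8%, while outside the segment these chromosomes had 53.8 and 57.3%. Copy number and openness cannot be told apart in these values.

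Brwd1 itself had a pair of peaks at its start in each list. The euploid peaks had a fold enrichment of 3.03 and 3.30. The Ts65Dn;Brwd1+/- peaks had 2.85 and 3.88, the latter over the start. The log2 ratio at the start was 0.23, towards Ts65Dn;Brwd1+/- mice. Whether the mutated copy was open could not be told from these peaks, and Brwd1 transcript or protein was not measured in these nuclei.

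Most promoters of the segment were listed lower in Ts65Dn;Brwd1+/- mice, with 12 of 60 higher as given above, Dynlt1b among them. For each protein-coding gene of the annotation, the highest peak within 1000 bases of any of its transcription starts was taken. Of 21938 genes, 43.1% had such a peak in both lists, 8.41% only in Ts65Dn;Brwd1+/- mice, 0.346% only in euploid mice and 48.1% in neither. Of 32 triplicated genes of a chosen list, 22 had one in both lists, 5 only in Ts65Dn;Brwd1+/- mice and 5 in neither. Morc3, a chromatin-binding ATPase gene, had a fold enrichment of 6.66 in euploid and 4.66 in Ts65Dn;Brwd1+/- mice, and its neighbour Setd4 had 6.28 and 4.43. Son, a splicing factor gene, had 6.04 and 5.28. Of the 22, Brwd1 was the 1 with a higher value in Ts65Dn;Brwd1+/- mice. The median log2 ratio of the 22 genes was -0.14, against 0.058 over all protein-coding genes with a peak in both lists. Peaks inside the bodies of the 32 genes numbered 20 in the euploid and 71 in the Ts65Dn;Brwd1+/- list, 3.55 times as many, near the 3.48 times of all protein-coding genes (2334 and 8126). App, the amyloid precursor gene, had 1 and 6 such peaks, and Dscam, a neuronal adhesion molecule gene, had 4 and 14, both chosen after their values were seen.

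The neuronal label was checked against marker genes. Of 12 hippocampal glutamatergic markers, 8 had a promoter peak in both lists and 2 only in Ts65Dn;Brwd1+/- mice. Zbtb20, a transcription factor of hippocampal pyramidal cells, had a fold enrichment of 7.35 and 7.37, Mef2c 4.55 and 3.69, and Neurod1 4.55 and 4.55. The values of Neurod1 are those of peaks within 1000 bases of a start, as no peak of either list was assigned to it by name. Slc17a7, the vesicular glutamate transporter, and Prox1, a granule cell factor, had none. Of 12 pan-neuronal markers, 9 had one in both and 3 only in Ts65Dn;Brwd1+/- mice, Elavl4 at 4.61, Celf4 at 3.48 and Rbfox3, the gene of NeuN, at 2.93. Elavl2, a neuronal RNA-binding protein, had 6.74 and 7.55. Of 12 interneuron markers, 11 had no promoter peak in either list, Gad1, Gad2, Pvalb and Sst among them.

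Markers of other cell types were mostly without a promoter peak. None was found in either list at 8 of 12 astrocyte, 11 of 12 oligodendrocyte lineage, 9 of 12 microglial and 11 of 12 endothelial and pericyte markers, against 48.1% of all protein-coding genes. Those with one in both lists included Glul and Slc1a2. Pdgfra, Aif1 and Vtn had one only in euploid mice, at 3.99, 3.20 and 4.79, and Aldoc, Sox9 and C1qc only in Ts65Dn;Brwd1+/- mice, at 3.07, 3.20 and 2.99. The peaks near the starts of Vtn and Sox9 were not assigned to these genes by name. Within such a list, fewer cells of a type and less open chromatin per cell cannot be told apart.

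Most genes of the BAF complex had a promoter peak in both genotypes. Of 27 subunits, 22 had a promoter peak in both lists, 4 only in Ts65Dn;Brwd1+/- mice (Bcl7c, Bcl11a, Dpf3 and Arid1b, at 2.63 to 3.61) and 1, Phf10, in neither. The ATPase genes Smarca4 and Smarca2 had fold enrichments of 7.49 and 6.02 in euploid and 6.72 and 5.39 in Ts65Dn;Brwd1+/- mice. Smarcc1, a core scaffold subunit, had 6.71 and 7.49, and Actl6a, the subunit of progenitor complexes, 7.36 and 7.22. The median log2 ratio of the 22 was 0.041, near the 0.058 of all genes.

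Receptor genes of synaptic signalling had more peaks in the Ts65Dn;Brwd1+/- list, by a higher ratio than all genes when every peak was counted and by a lower one within gene bodies, whereas immediate early genes had nearly as many in both lists. Of 12 immediate early genes, which neurons switch on with activity, 11 had a promoter peak in both lists, among them Homer1 (5.31 and 6.23), Jun (4.96 and 5.28) and Bdnf (3.78 and 4.78). Over all protein-coding genes, peaks of every position numbered 11831 in the euploid and 21033 in the Ts65Dn;Brwd1+/- list, 1.78 times. The immediate early genes, most of them short, had 19 and 21 peaks, 1.11 times, none inside gene bodies. Of 21 glutamate receptor genes, 11 had a promoter peak in both and 4 only in Ts65Dn;Brwd1+/- mice. Gria2, the AMPA receptor subunit that sets calcium permeability, had 4.90 and 5.42, and Grm7, a presynaptic metabotropic receptor, 4.76 and 5.05. All peaks assigned to the 21 genes numbered 44 and 105, 2.39 times against the 1.78 of all genes, and those inside gene bodies 28 and 84, a smaller ratio than the 3.48 of all genes. Their median length was 319 kb, against 17.4 kb of all genes. Over all peaks, higher ratios were also found from few peaks at astrocyte (3 and 11, 3.67) and oligodendrocyte lineage markers (2 and 7, 3.5). Ratios below 1.78 were found at microglial markers (1.67), BAF genes (1.75) and housekeeping genes (1.375). Grin2a, an NMDA receptor subunit gene, had 9 and 22 peaks, and Grik4, a kainate receptor gene, had 2 and 16, both chosen after values were seen.

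For genes of inhibition, vesicle release and excitability, gene-body peaks were 12 and 31, 9 and 26, and 22 and 61 in the euploid and Ts65Dn;Brwd1+/- lists. These are ratios of 2.58, 2.89 and 2.77, all below the 3.48 of all genes, while over all peaks the ratios were 2.22, 2.45 and 2.94, above the 1.78 of all genes. Of 14 GABA receptor genes, 11 had a promoter peak in both lists, and the list had 23 and 51 peaks in all. Of 17 genes of vesicle release, 10 had one in both and 5 only in Ts65Dn;Brwd1+/- mice. Syt1, the calcium sensor of release, had 7.21 and 7.50, and Syn2, a synapsin, 6.21 and 5.95. Of 17 voltage-gated channel genes, 7 had one in both and 6 only in Ts65Dn;Brwd1+/- mice. The channel list had 31 and 91 peaks. Of 18 genes of calcium and long-term potentiation signalling, 14 had one in both, with Ppp3r1, the calcineurin regulatory subunit, at 5.83 and 6.78. Of 16 housekeeping genes, 14 had one in both lists, with a median log2 ratio of 0.014 and 16 against 22 peaks. Hprt, the housekeeping gene on chromosome X, had 4.39 and 6.20 and was chosen after its values were seen.

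**Figure D5:**
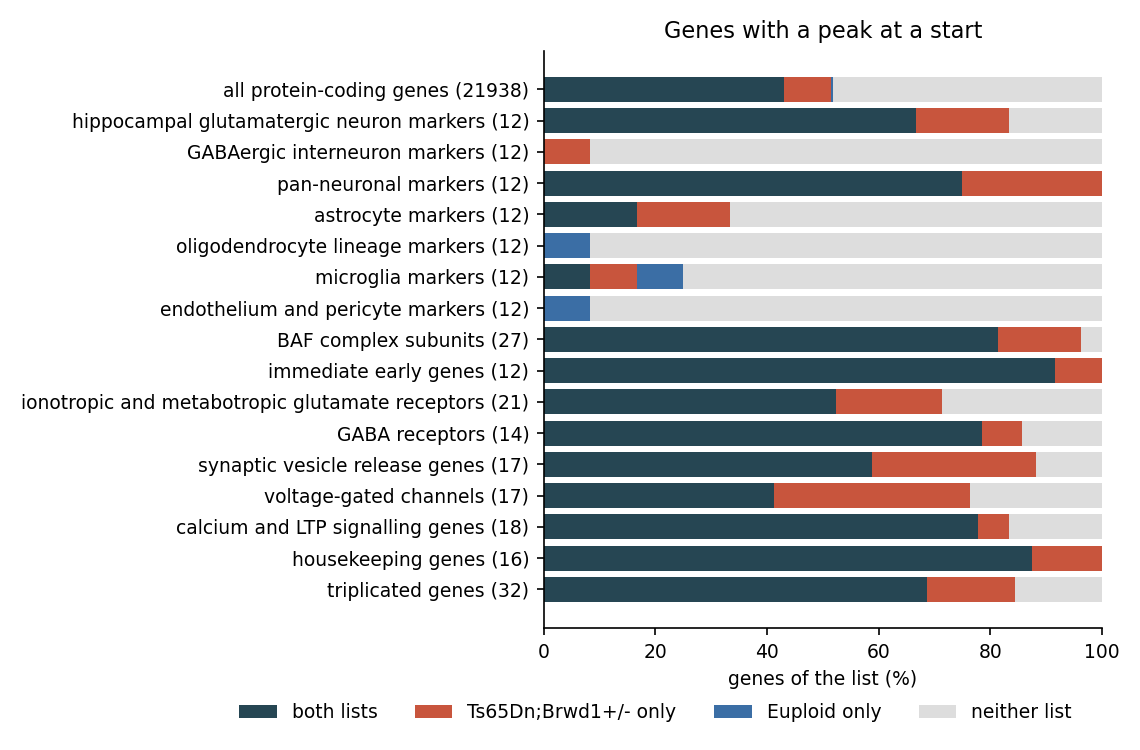
Share of the genes of each list (x axis, %, number of genes in brackets) with a peak within 1000 bases of a transcription start in both lists, in 1 list or in neither. Genes with one only in Ts65Dn;Brwd1+/- mice were 8.41% of all protein-coding genes. The list with the highest share was that of voltage-gated channel genes, 6 of 17 (35.3%). Their median length was 159 kb, against 17.4 kb of all genes. Shares below that of all genes included GABA receptor (7.14%) and calcium and long-term potentiation genes (5.56%).

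Private peaks were found more often at long genes. Of all protein-coding genes, 25.7% had more peaks in the Ts65Dn;Brwd1+/- than in the euploid list. A private Ts65Dn;Brwd1+/- peak was found at 8.42% of the genes in the shortest of 4 equal groups by length and at 52.9% of those in the longest. Dab1 had the most, with 30 private peaks, and 34 peaks against 5 in all. Csmd1, a gene of a synaptic complement regulator, had 29 against 6, and Dlg2, which encodes the scaffold PSD-93, had 22 against 1. Asic2, an acid-sensing ion channel gene, had 19 against 0, and Rbfox3 had 16 against 1. These genes were chosen after their values were seen, and were long, from 422 kb for Rbfox3 to 1973 kb for Dlg2. Per 100 kb, private peaks numbered 2.67 at Dab1, 1.40 at Csmd1, 1.06 at Dlg2, 1.75 at Asic2 and 3.56 at Rbfox3. Shared peaks were not counted by gene length, and the part of length in these counts was not tested.

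By the gene names the authors' annotation gave, 10467 genes had a proximal promoter peak in either list. Of these, 7516 (71.8%) had one in both lists, 2313 (22.1%) only in Ts65Dn;Brwd1+/- mice and 638 (6.10%) only in euploid mice. Overlapping peaks between neighbouring genes could take different names in the lists. The euploid peak overlapped no Ts65Dn;Brwd1+/- peak at 72 of the 638 genes, and the Ts65Dn;Brwd1+/- peak no euploid peak at 1819 of the 2313.

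Among the 10 private peaks of highest fold enrichment, proximal promoters were found in the Ts65Dn;Brwd1+/- list only. Over all private peaks their shares were close, 14.5% in the Ts65Dn;Brwd1+/- and 16.1% in the euploid list. In Ts65Dn;Brwd1+/- mice 5 of the 10 highest were proximal promoters: Lypla1 (7.07), Pdcd2 (6.17), Rnf113a2 (6.06), 3830406C13Rik (5.95) and Ei24 (5.92). The Lnx2 intron shown above had 5.98, and an interval in the gene body of Jph1, a gene of junctions between cell surface and endoplasmic reticulum, had 5.93. All but the Lypla1 peak were also in the Ts65Dn list. The Lypla1 peak (chr1:4807479-4808218) is the first interval of chromosome 1 in its list, whereas the other lists begin at Tcea1, and whether a first interval was lost from them was not tested. None of the 10 highest private euploid peaks was at a proximal promoter. The highest were intergenic, at chr7:12010388-12010897 (7.98, 68.4% masked as repeats) and chr2:3050135-3050385 (6.91, 64.1% masked).

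Peaks made mostly of repeats were more frequent among private euploid peaks, although their median masked share was the lowest, 1.99% against 4.80% at shared and 5.99% at private Ts65Dn;Brwd1+/- peaks. On the standard chromosomes, peaks with more than 50% of their bases masked made up 5.68% of the private euploid (33 peaks), 1.19% of the private Ts65Dn;Brwd1+/- (188) and 0.394% of the shared Ts65Dn;Brwd1+/- peaks (57). Median GC content was 60.6% at shared and 51.8% at private Ts65Dn;Brwd1+/- peaks and 52.5% at private euploid peaks, and the genome as a whole has 41.7%. Within gene bodies it was 51.2% at shared and 50.2% at private peaks, so there the classes were close.

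Sequence motifs were counted in the 200 bases around each peak centre on both strands, beside 13237130 windows of that length over the genome. In gene bodies the E-box CAGATG was in 39.0% (37.9 to 40.2%) of private and 38.4% (36.4 to 40.3%) of shared Ts65Dn;Brwd1+/- peaks, and in 15.0% of all windows. The E-box CAGCTG was in 20.8 and 19.9%, and in 7.14% of windows. The AP-1 motif TGANTCA was in 15.9% (15.0 to 16.8%) and 13.9% (12.5 to 15.3%), and in 5.94% of windows. Gene-body peaks that only the Ts65Dn;Brwd1+/- list held thus carried these letters about as often as shared ones. Private euploid peaks in gene bodies had CAGATG in 19.9% (14.6 to 26.5%) and TGANTCA in 8.77% (5.39 to 14%), from 171 peaks.

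At proximal promoters the ETS motif CCGGAAGT was in 4.15% (3.41 to 5.05%) of private and 5.98% (5.49 to 6.52%) of shared Ts65Dn;Brwd1+/- peaks, and in 0.121% of windows. The NRF1 motif GCGCATGCG was in 1.66 and 2.46%. CAGATG went the other way, at 10.6% (9.43 to 12%) of private and 5.48% (5.01 to 5.99%) of shared promoter peaks. A base may count towards more than 1 motif, and a match is a description of letters, not of binding.

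Peaks of SMARCA2/4 binding in euploid hippocampus, from ChIP-seq of whole tissue of males aged 6 to 8 weeks, lay more often on shared than on private open chromatin. Of shared Ts65Dn;Brwd1+/- ATAC peaks, 37.1% (36.3 to 37.8%) overlapped 1 of the 22667 euploid SMARCA2/4 peaks, and of private ones 15.2% (14.7 to 15.8%). At proximal promoters the shares were 38.8 and 22.3%, and in gene bodies 33.4 and 13%. Private euploid ATAC peaks overlapped them at 13.4% (10.9 to 16.4%). With the SMARCA2/4 list of Ts65Dn;Brwd1+/- mice, which held only 1873 peaks, the shares were 3.20% of shared and 1.13% of private Ts65Dn;Brwd1+/- ATAC peaks. The order was reversed in the euploid ATAC list, at 2.54% of shared and 4.87% of private peaks. With the 1090 of these SMARCA2/4 peaks that had a q-value under 0.05, the shares were 1.88 and 0.553%, and 1.52 and 4.03%. Shared peaks were wider than private ones, as given above, and the part of width and height in these shares was not tested.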

How the data were processed

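ATAC-seq had been made from NeuN+ hippocampal nuclei of adult male mice, 3 libraries per genotype. Per the methods, the authors aligned reads to mm10 with HISAT2, kept unique reads, removed duplicates, called peaks with MACS using a shift and an extension of reads suited to transposase cuts, and annotated them with the region tool of diffReps. The submitters' processing notes also name HISAT2 and mm10. Each deposited peak has a fold enrichment, which is the ratio of its pileup to the background expected there, and a q-value. How libraries were pooled is not given in the sources used here. Depth per library is unknown from the lists. In the euploid, Ts65Dn;Brwd1+/- and Ts65Dn lists 20.2, 20.3 and 22.8% of the fold enrichments fell within 0.02 of a step of an even grid (such windows cover 4% of it), and from the step, taken as the value of 1 read, backgrounds of 8.56, 10.9 and 8.30 reads followed, 1.28 and 0.970 times the euploid value for the Ts65Dn;Brwd1+/- and Ts65Dn lists. The part of this background in the lengths of the lists was not tested. The deposited SMARCA2/4 peak lists have the same fold and q-value columns. Read counts of neuronal cultures were not used here.

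Overlaps, pairs, shares, GC content and motifs were computed with Python 3.11.15, numpy 2.4.6 and pandas 2.3.3, intervals with scipy 1.17.1, and checked on simulated data. Coordinates are 1-based, as in the files. Of 14090 genes named in the lists, 14061 (99.8%) were found in the annotation. No test between genotypes was run, since each had 1 list. The members and gene lists were chosen with earlier results of these data known. Named were, per gene list, members of highest promoter fold enrichment and then members with none, the 10 highest shared peaks, the 10 highest private peaks of each list, the 10 largest and smallest pair ratios, and Brwd1. Genes named otherwise are marked as such, and the sites whose sequence is shown were chosen after their values were seen. Some members of these lists and a sequence are not reported here. Alternatives tried were a reciprocal overlap of 50%, a q-value under 1e-06, a fold enrichment of 4 or more, equal list lengths, merging within 500 bases, leaving out the segment and sex chromosomes, other pairings, promoters by annotated starts within 1000 bases, and stricter SMARCA2/4 peaks.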

Additional observations from a re-analysis of the deposited data

How the results depend on the processing

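Every share below was larger at shared than at private peaks, and every median log2 ratio of fold enrichment was above 0, under each alternative run, except that the ratio was -0.013 among the 1000 strongest peaks of each list by q-value (0.045 by fold enrichment). With a reciprocal overlap of 50%, 80.0% of the euploid and 41.1% of the Ts65Dn;Brwd1+/- peaks were shared, 67% at equal numbers, the median log2 ratio was 0.049, proximal promoters made up 55.7% of shared and 20.3% of private peaks, and SMARCA2/4 peaks lay on 36.1 and 18.5%. With q-values under 1e-06 the shared shares were 96.7 and 47.1%, the ratio 0.055, the promoter shares 59.3 and 16.2%, and SMARCA2/4 peaks lay on 16.9% of private peaks. With a fold enrichment of 4 or more the shared shares were 89.7 and 64.5%, the ratio 0.055, the promoter shares 74.5 and 31.9%, and the SMARCA2/4 shares 39.2 and 22.3%. With the longer list shortened these were 80.8 and 77.8%, 0.092, and 62.1 and 18.9%. Ranked by fold enrichment, 75% of equal numbers overlapped. Merging peaks within 500 bases gave 49.3% and 0.061. Promoters by annotated starts gave 65.4 and 24.9%, and 112 genes with a promoter peak only in euploid mice. SMARCA2/4 peaks with a q-value under 0.05 gave 34.2 and 13.6%. Of the alternatives added after seeing the data, pairs of 1 peak each gave 0.057, joined regions 0.059, and genes whose promoter peak overlaps no peak of the other list 72 in euploid mice. The cause of these moves was not tested. The other 13 values moved less than their counting interval, for counts by less than 1.5 times, or for log2 ratios were equal at 2 decimals. Among these, genes with a promoter peak only in Ts65Dn;Brwd1+/- mice fell from 2313 to 1546 at a fold enrichment of 4 or more, close to that bound. Genes with a promoter peak in 1 list only were not recomputed with the reciprocal overlap, since they are matched by name.

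No paired analysis was possible because each genotype has 1 list pooled over its libraries, and for the same reason no replicate was left out. The replicate numbers of the labels therefore enter no value. Without lists per library, a difference between genotypes was not set against the spread between animals, and genotype and sequencing depth cannot be told apart. Fold enrichment is relative to the background of its own list, estimated at 8.56 and 10.9 reads.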
